A study of Homo sapiens with 6 samples.

Results

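The set comprises 9 genes of the tight junction: the claudins CLDN1, CLDN2, CLDN6, CLDN12, CLDN14, CLDN15 and CLDN19, occludin (OCLN) and the scaffold TJP1, also called ZO-1. They were taken by symbol from the 43424 symbols of the count tables, and all 9 were found. The members were chosen by results of these samples, among them the levels and the difference between treated and control cells, so these values are given here as a description, with no p; the members past the threshold of the fit over all genes are only counted. Expression was measured in 6 cultures of HepG2, an established human liver cancer line that retains many hepatocyte traits. Of these, 3 were control cultures with no treatment and 3 received 10 µM tamarixetin, an O-methylated quercetin, for 24 h. All 6 are labelled wild type and biological replicates, and the series text puts the cells at 90% confluency before treatment. Tamarixetin was given in medium with 1% serum, whereas cells were grown in 10%; which serum level or vehicle the controls had during those 24 h is not given in the sources used here, so compound and serum cannot be told apart if the media differed.

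Tight junctions seal the space between neighbouring epithelial cells. Claudins form the strands and set which ions and solutes can pass, with some members acting as barriers and others as channels. Occludin lies in the same strands, and the TJP scaffolds hold claudin tails at the membrane and tie them to actin. In the liver these junctions close the bile canaliculi between hepatocytes and keep bile apart from blood.

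Libraries held 11980585 to 16168855 counts and were made with a 3′ tag kit, in which a transcript gives about 1 fragment whatever its length. CPM (counts scaled to library size) can therefore be compared between genes without a correction for length. Differences between genes in annotated 3′ ends and in reads that match several places were not corrected, so orders of level are approximate. Of 13198 genes that passed the filter on low counts, 43.7% were past the threshold (adjusted p under 0.05 in edgeR's quasi-likelihood test), 22.4% higher and 21.3% lower with tamarixetin. As a check of the labelled cell type, 8 of 8 hepatocyte markers were abundant, with a summed level of 17247 to 17829 CPM in controls and 9890 to 10176 CPM with tamarixetin; all 8 fell. Bile duct markers KRT19 and SOX9 were present, with KRT7 under 1 CPM and CFTR at 0 counts, and the summed level of the 4 went from 705 to 724 CPM in controls to 576 to 613 CPM. Endothelial markers summed to at most 1.90 CPM in any library, with KDR at 0. Of 4 leukocyte markers CD3E was at 0 and PTPRC under 1 CPM while LYZ was abundant, giving sums of 906 to 1008 CPM in controls and 765 to 822 CPM with tamarixetin. The 5 mesenchymal markers summed to 110 to 113 CPM and 96.1 to 102 CPM. The part of these shifts in the values below was not tested. All cultures were of HepG2, so the sums are not read as shares of cell types. In bulk RNA fewer cells expressing a gene and less RNA per cell cannot be told apart.

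Of the set, 1 gene (CLDN12) was past the threshold as higher and 4 (CLDN1, CLDN14, CLDN15 and CLDN19) as lower, beside 22.4% and 21.3% of all genes tested. CLDN2, CLDN6, OCLN and TJP1 were not past it. All 9 passed the filter on low counts. The CPM ranges of the groups did not overlap in 5 of the 9, 1 higher and 4 lower, beside 50.5% of all genes tested, 26% higher and 24.5% lower. Because this contrast was known when the members were chosen, nothing is read from these counts. The median log2 fold change was -0.25, against 0.00038 over all genes tested, and single values ran from -1.90 to 0.46.

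CLDN1, a barrier claudin of many epithelia and an entry factor for hepatitis C virus, was the most abundant member (chromosome 3, 190305707 to 190322446, GRCh38). Control libraries had 76.8, 80.8 and 79.8 CPM and tamarixetin libraries 68.4, 71.9 and 58.1 CPM. All 3 treated libraries lay below all 3 controls, and tamarixetin replicate 3 was the lowest. Means were 79.1 ± 2.11 and 66.1 ± 7.20 CPM (SD, n = 3 per group), a log2 fold change of -0.25 (SE 0.061). The annotated span of CLDN16 on the same chromosome contains CLDN1 whole, and CLDN16 itself had 2 counts over the controls and 2 over the treated libraries.

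CLDN19 had the largest difference of the set. It encodes a claudin best known from the retina and from the kidney tubule (chromosome 1, 42733093 to 42740236). In the kidney tubule it works with CLDN16 in the handling of magnesium and calcium. It stood at 36.7, 32.4 and 30.5 CPM in controls and at 9.30, 7.74 and 9.65 CPM with tamarixetin. The groups were far apart, with the lowest control more than any treated library by a wide margin. The level was 3.73-fold lower with tamarixetin (log2 fold change -1.90, SE 0.11), from a mean of 33.2 ± 3.16 to 8.90 ± 1.01 CPM (SD, n = 3 per group). Leaving out each library in turn gave -1.81 to -1.97. No other annotated gene overlaps CLDN19 in RefSeq or lies within 1000 bases of it.

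CLDN15, which forms cation channels and is best known from the gut, had 13.96, 10.00 and 12.16 CPM in controls and 8.47, 9.05 and 8.49 CPM with tamarixetin (chromosome 7, 101232094 to 101238820). The treated libraries sat close together, just below the lowest control. The log2 fold change was -0.48 (SE 0.14). Without control replicate 1, the highest of the controls, it was -0.37 and CLDN15 was not past the threshold.

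CLDN14, a barrier claudin whose loss causes deafness, was near the limit of what these libraries can measure (chromosome 21, 36460621 to 36576569). The controls had 31, 28 and 40 counts and the treated libraries 19, 20 and 5, or 2.14, 2.33 and 2.51 against 1.22, 1.45 and 0.412 CPM. Groups did not overlap, but tamarixetin replicate 3 stood well below the other two. The log2 fold change of -1.15 (SE 0.38) was -0.81 without that library, and CLDN14 was then not past the threshold. An antisense gene, CLDN14-AS1, shares 37906 bases of the locus. It had 4 counts in each group.

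CLDN12 had higher values with tamarixetin in every library. It is an unusual claudin linked to calcium passage in the intestine (chromosome 7, 90403461 to 90415954). Controls had 13.3, 11.6 and 16.0 CPM and tamarixetin libraries 17.9, 16.6 and 19.2 CPM. The lowest treated library was just above the highest control. The means of 13.6 ± 2.25 and 17.9 ± 1.29 CPM (SD, n = 3 per group) gave a log2 fold change of 0.38 (SE 0.12). Without control replicate 2, the lowest, this became 0.28 and CLDN12 was not past the threshold.

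CLDN6, a claudin of embryonic epithelia that many tumours express again, was at nearly the same level in both groups (chromosome 16, 3014712 to 3018183). The controls had 32.8, 31.8 and 31.0 CPM and the treated libraries 30.1, 33.4 and 34.7 CPM. Its treated values spanned the controls, with a log2 fold change of 0.035 (SE 0.084) that turned to -0.0072 without tamarixetin replicate 3. CLDN2, a channel for cations and water, had 9 to 18 counts in each control and 9 to 10 in each treated library (chromosome X, 106900164 to 106930861). The groups overlapped, and the log2 fold change of -0.40 had an SE of 0.50, so a difference of that size was not detectable at this depth. Leaving out single libraries moved it between -0.13 and -0.69. The gene RIPPLY1 shares 3178 bases with the CLDN2 locus and had 17 counts over the controls and 18 over the treated libraries, against 39 and 29 for CLDN2; how reads from the shared bases were counted is not given in the sources used here.

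Occludin was scarce. OCLN (chromosome 5, 69492547 to 69558104) had 34, 22 and 33 counts in controls and 51, 47 and 23 with tamarixetin. In CPM these were 2.35, 1.83 and 2.07 against 3.27, 3.40 and 1.90. Of the treated libraries, 2 lay above every control and replicate 3 lay among them. The log2 fold change was 0.46 (SE 0.30), and without tamarixetin replicate 3 it was 0.67. No counts were recorded for the related pseudogene OCLNP1, but a symbol missing from those counted would also give 0. Whether reads matching both genes were dropped is not given in the sources used here, so the level of OCLN may be understated.

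TJP1, the scaffold that binds claudin tails through its PDZ domains (chromosome 15, 29699367 to 29969049), had 52.7, 49.3 and 48.0 CPM in controls and 49.6, 46.5 and 54.6 CPM with tamarixetin. The groups overlapped fully, at 50.01 ± 2.39 and 50.21 ± 4.11 CPM (SD, n = 3 per group), and the log2 fold change was 0.0036 (SE 0.070). Its sign depended on the setting, from -0.056 without tamarixetin replicate 3 to 0.058 without tamarixetin replicate 2. The differences of the claudins lay on both sides of that of TJP1.

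**Figure D1:**
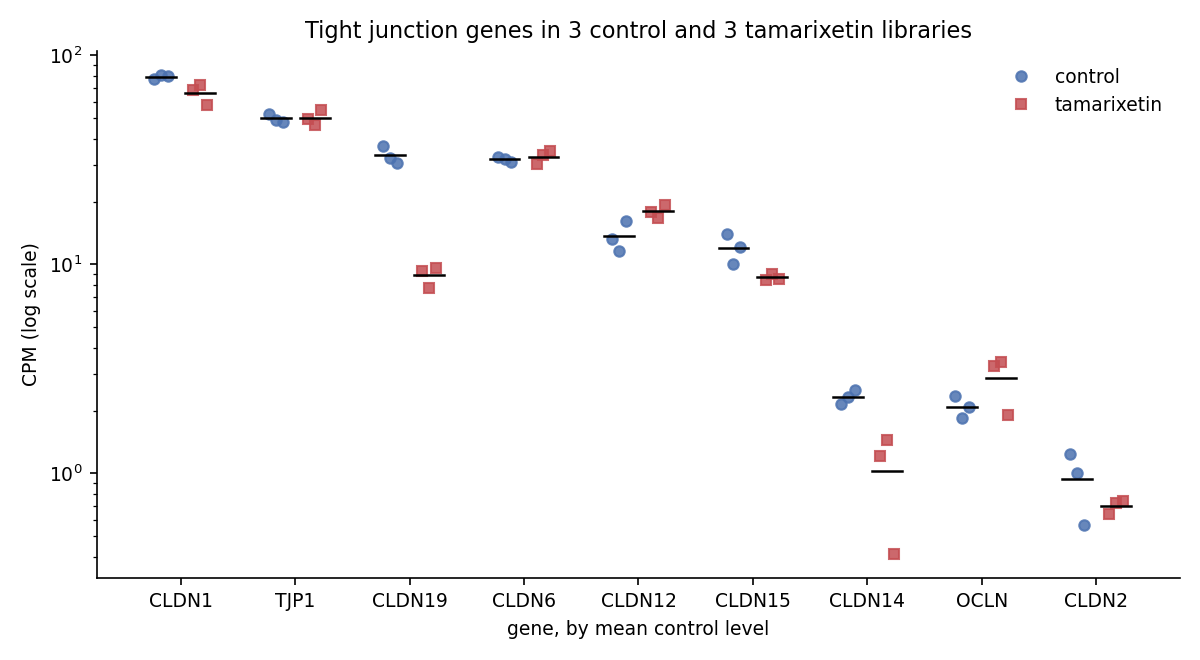
Level of the 9 genes in CPM (log axis) in each control (circles) and tamarixetin (squares) library, ordered by mean control level; black bars are group means of 3 libraries. CLDN19 goes from 33.2 to 8.90 CPM, whereas TJP1 and CLDN6 overlap between the groups.

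In control cells the order of mean levels was CLDN1, TJP1, CLDN19, CLDN6, CLDN12, CLDN15, CLDN14, OCLN and CLDN2, from 79.1 to 0.936 CPM. Neighbours in that order had separate ranges except for CLDN19 and CLDN6, CLDN12 and CLDN15, and CLDN14 and OCLN, whose control libraries overlapped. With tamarixetin CLDN19 came after CLDN6 and CLDN12 and its range overlapped that of CLDN15, which followed it, and OCLN came before CLDN14, whose range overlapped that of CLDN2. CLDN1 and TJP1 were first and second in both groups.

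The scaffold TJP3, or ZO-3 (chromosome 19, 3708384 to 3750813), was not a member. Like the genes of the lists given further on, it was chosen with earlier results of these data known, so its p is not independent evidence. It had 81, 84 and 118 counts in controls and 18, 16 and 17 with tamarixetin, or 5.598, 7.001 and 7.398 against 1.15, 1.16 and 1.40 CPM. The fall was 5.39-fold (-2.43 on the log2 scale, SE 0.26; edgeR, Benjamini-Hochberg adjusted p = 9.06e-14), with 3 of 3 treated libraries below all controls. Its 3′ end shares 42 bases with the end of APBA3, which had 400 counts over the controls and 387 over the treated libraries.

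The files list 24 claudin symbols, and 17 of them lay outside the set. Of these 17, 3 had enough counts to be tested, 8 had 0 counts in all libraries and the other 6 were too low. All 3 tested were past the threshold, beside 43.7% of all genes tested: CLDN4 and CLDN11 rose and CLDN3 fell. CLDN4, a barrier claudin that like CLDN3 binds the enterotoxin of Clostridium perfringens, had 65.4, 62.1 and 64.1 CPM in controls and 133, 127 and 119 CPM with tamarixetin. Each treated library lay well above each control. It rose by 0.99 on the log2 scale (SE 0.055; edgeR, Benjamini-Hochberg adjusted p = 1.06e-30). CLDN3 had 37, 31 and 49 counts in controls and 17, 9 and 13 with tamarixetin (2.74 ± 0.290 and 0.938 ± 0.248 CPM, SD, n = 3 per group), a change of -1.54 on the log2 scale (SE 0.37; edgeR adjusted p = 2.79e-04). CLDN3 and CLDN4 are neighbours on chromosome 7, 60.7 kb apart (73768997 to 73770270 and 73830996 to 73832690), and moved in opposite directions. CLDN11, known from myelin and the testis, rose by 0.38 (SE 0.11; edgeR adjusted p = 0.00430), a call lost without tamarixetin replicate 2 (0.27, edgeR adjusted p = 0.0877).

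**Figure D2:**
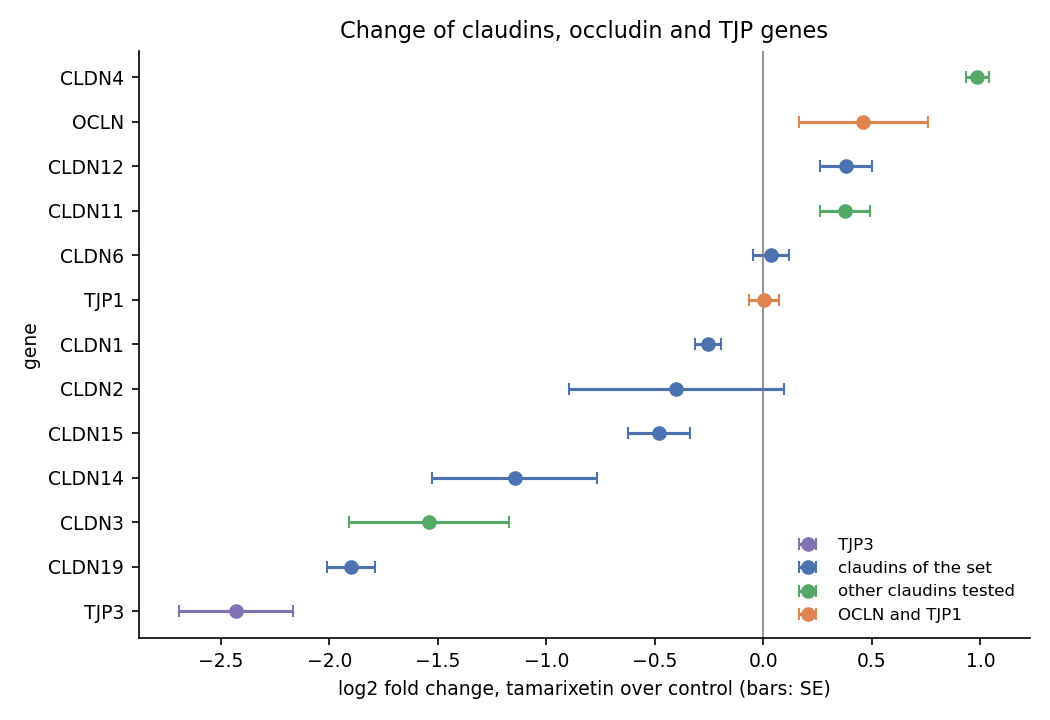
Log2 fold change of tamarixetin over control with its SE for the 9 genes, the other tested claudins and TJP3. TJP3 (-2.43) and CLDN19 (-1.90) are lowest and CLDN4 (0.99) is highest; TJP1 lies at 0.0036.

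The make-up of claudin transcripts differed between the groups more than their sum. All 24 claudins together stood at 260, 254 and 255 CPM in controls and 290, 293 and 272 CPM with tamarixetin. The 7 claudins of the set summed to 177, 170 and 173 CPM in controls and 136, 141 and 131 CPM with tamarixetin, that is 67.6% ± 0.475 of all claudin CPM in controls and 47.8% ± 0.764 in treated libraries (SD, n = 3 per group). These 7 were chosen with this contrast known and CLDN4 is not among them, so nothing is read from the fall of their share. CLDN1 was the leading claudin of control cells with 30.9% ± 1.251 of claudin CPM, against 23.2% ± 1.62 with tamarixetin. CLDN4 went from 24.9% ± 0.385 to 44.4% ± 1.32 and was then the first. CLDN19 went from 12.95% ± 1.07 to 3.13% ± 0.460, while CLDN6 had 12.4% ± 0.234 and 11.5% ± 1.201. Shares of one sum are tied to each other, so the larger share of CLDN4 leaves less for the others together. Some of these still had larger mean shares with tamarixetin, CLDN11 and CLDN12 among them.

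**Figure D3:**
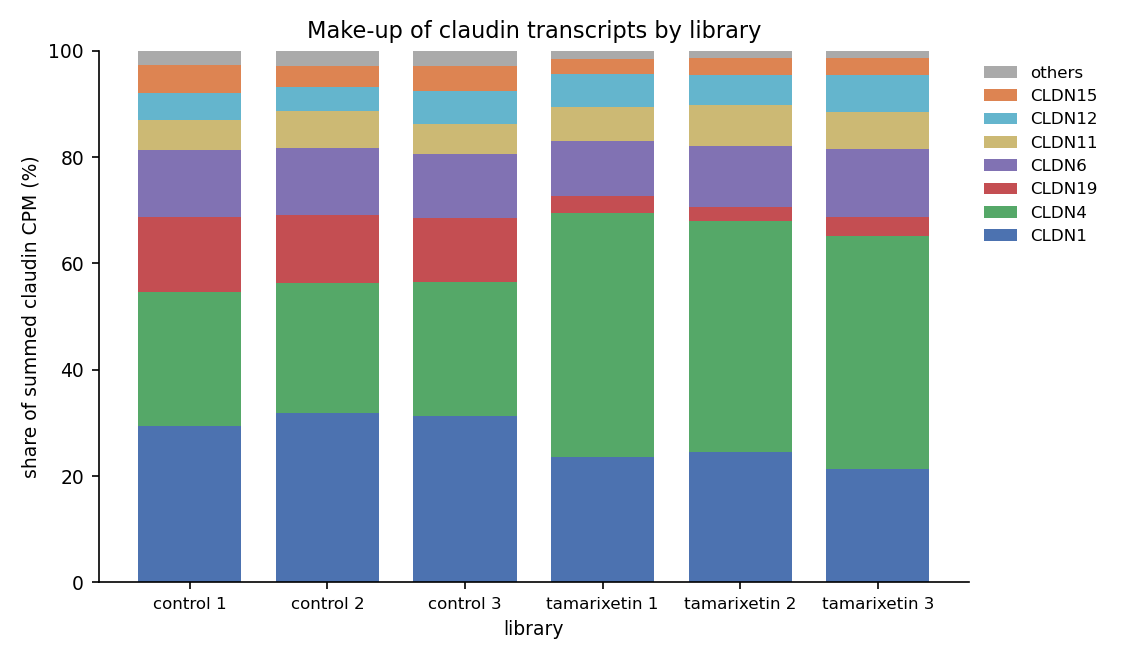
Share of the summed claudin CPM (%) held by each claudin in each library; claudins other than the 7 largest in control are pooled as others. CLDN4 takes 24.9% of the sum in controls and 44.4% with tamarixetin, and CLDN19 12.95% and 3.13%.

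The promoter sequences of the most abundant claudin of the set, of its claudin with a higher level with tamarixetin, and of the neighbours CLDN3 and CLDN4 are shown because these genes stood for both directions. RefSeq promoters (GRCh38.p14, 250 bases before to 50 after the annotated start, 5′ to 3′ on the gene's strand) were found for 8 of the 9 members. The member without one was CLDN19, which had the largest difference of the set. Capitals mark matches on either strand to any of 4 short motifs: CAGGTG, the E-box that Snail and ZEB repressors bind; TGANTCA, the AP-1 site; GGGCGG, the GC box; and GCGTG, the core of the aryl hydrocarbon receptor site. Of 35093 promoters of this length, 20.6%, 7.71%, 44.9% and 36.5% hold them, in that order. CLDN1 is chr3:190322397-190322696 (minus strand), CLDN12 chr7:90403211-90403510 (plus), CLDN3 chr7:73770221-73770520 (minus) and CLDN4 chr7:73830746-73831045 (plus).
CLDN1: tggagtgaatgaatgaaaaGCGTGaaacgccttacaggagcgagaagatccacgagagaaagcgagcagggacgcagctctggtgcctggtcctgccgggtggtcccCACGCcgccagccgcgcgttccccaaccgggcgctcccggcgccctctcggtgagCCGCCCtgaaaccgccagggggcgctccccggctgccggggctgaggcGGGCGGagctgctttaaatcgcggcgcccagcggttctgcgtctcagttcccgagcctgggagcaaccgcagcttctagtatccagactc
CLDN12: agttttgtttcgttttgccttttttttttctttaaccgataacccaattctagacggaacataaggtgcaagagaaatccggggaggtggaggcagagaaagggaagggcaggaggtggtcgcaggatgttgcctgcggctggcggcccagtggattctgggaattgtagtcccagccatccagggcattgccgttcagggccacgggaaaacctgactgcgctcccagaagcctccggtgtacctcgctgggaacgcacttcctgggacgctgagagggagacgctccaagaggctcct
CLDN3: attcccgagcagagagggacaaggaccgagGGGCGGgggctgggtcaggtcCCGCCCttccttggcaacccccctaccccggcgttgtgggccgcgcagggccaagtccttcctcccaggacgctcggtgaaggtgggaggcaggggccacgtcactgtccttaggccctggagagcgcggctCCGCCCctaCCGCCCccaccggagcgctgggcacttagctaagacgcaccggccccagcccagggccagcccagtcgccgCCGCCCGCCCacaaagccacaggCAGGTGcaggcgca
CLDN4: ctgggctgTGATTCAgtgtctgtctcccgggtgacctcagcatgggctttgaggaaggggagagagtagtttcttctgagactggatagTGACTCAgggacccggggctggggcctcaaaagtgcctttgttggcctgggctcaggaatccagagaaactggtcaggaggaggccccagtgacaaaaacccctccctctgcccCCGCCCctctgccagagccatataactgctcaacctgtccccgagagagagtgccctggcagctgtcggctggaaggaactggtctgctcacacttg

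CLDN1 had GCGTG on its own or the opposite strand starting 231 and 143 bases before the start site and GC boxes at 88 and 40 bases before it. CLDN12 had none of the 4 motifs in this window. CLDN3 had 6 GC boxes, of which those starting 14 and 18 bases after the start overlap, and an E-box 37 bases after the start. CLDN4 had AP-1 matches 242 and 161 bases before the start and a GC box 47 bases before it. Among the other members, E-box letters were found in the promoters of CLDN6 (1 match) and OCLN, in 1 of 4 listed promoters of TJP1 and in 2 of 3 of CLDN14, and AP-1 letters in those of CLDN15 and in 1 of 2 of CLDN2. GCGTG was also found in the promoter of CLDN6 and in at least 1 promoter each of CLDN2, CLDN14 and TJP1. GC boxes were also found in the promoters of CLDN6 and CLDN15 and in at least 1 each of OCLN and TJP1. A match is a run of letters and no measured binding.

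Further genes of the junction were taken from lists by role. Over the 6 lists, the other claudins and TJP3 included, 59 of 87 genes were tested: 19 rose and 17 fell, beside 22.4% higher and 21.3% lower over all genes tested, and the median log2 fold change was 0.087 against 0.00038. The same shares over all genes stand beside the count of each list below, and no list was tested as a set.

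Among other membrane proteins of the junction, 4 of 7 tested fell and 2 rose (median -0.41, adjusted p of those called at most 4.88e-04 in edgeR's test). CXADR, an adhesion molecule and virus receptor, fell from 203 ± 1.99 to 131 ± 2.20 CPM (log2 fold change -0.63, SE 0.044), and F11R, the adhesion molecule JAM-A, from 120 ± 4.68 to 90.0 ± 7.01 CPM. JAM3, a relative of F11R, fell by 0.83 on the log2 scale. ESAM, an adhesion molecule known from endothelium, rose from 3.26 ± 0.511 to 8.75 ± 0.222 CPM (SD, n = 3 per group). Each of these 4 had all treated libraries on one side of all controls, beside 50.5% of all genes tested. They were named for having the smallest p of their list, so nothing is read from this.

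Of the cytoplasmic plaque, 17 of 18 genes were tested, 5 fell and 4 rose (median 0.024). Besides TJP3, CGNL1, or paracingulin, fell from 38.8 ± 2.19 to 21.5 ± 1.06 CPM (log2 fold change -0.85, SE 0.088). AFDN, or afadin, which links nectins to actin, rose from 159 ± 11.2 to 209 ± 8.71 CPM, and YBX3, the TJP1 partner ZONAB, from 110 ± 2.01 to 143 ± 2.44 CPM (SD, n = 3 per group). The adjusted p of the 9 called genes was at most 0.0344 in edgeR's test.

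Cell polarity genes were mixed, with 3 of 14 higher and 4 lower (median 0.041). The polarity scaffold PARD3, its partner PARD6B and the scaffold DLG1 rose by 0.26, 0.38 and 0.36 on the log2 scale, and LLGL1 and LLGL2, of the basolateral complex, had log2 fold changes of -0.47 and -0.32. CDC42, the most abundant of the list in control at 181 ± 7.22 CPM (SD, n = 3), had a log2 fold change of 0.087 and an adjusted p of 0.0921 in edgeR's test; it was past the threshold with scaling by library size alone (adjusted p = 0.0150) and without control replicate 3 (0.0384).

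Genes of traffic and turnover of junction proteins rose in 4 of 10 and fell in 2 (median 0.17). PRKAA2, a catalytic subunit of the energy-sensing kinase AMPK, rose from 61.1 ± 2.29 to 85.6 ± 5.16 CPM, and WNK1, a kinase of ion transport, by 0.17 on the log2 scale. EPCAM, a membrane protein that binds and stabilises claudins, fell from 180 ± 6.74 to 151 ± 4.67 CPM and RAB13, a small GTPase that delivers junction proteins, from 47.2 ± 3.22 to 37.9 ± 0.997 CPM (SD, n = 3 per group). Their adjusted p was at most 0.0256 in edgeR's test.

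Transcription factors reported at claudin or occludin genes rose in 4 of 8 tested and fell in 1 (median 0.30). KLF5 and the epithelial factor ELF3 rose by 1.47 (SE 0.21) and 0.79 (SE 0.094), ELF3 from 18.2 ± 0.992 to 31.7 ± 0.437 CPM. ZEB1, a repressor of epithelial genes, rose by 0.36 (SE 0.091), and SNAI1, which encodes Snail, rose from 3.49 ± 0.874 to 5.76 ± 0.233 CPM. HNF4A, the hepatocyte factor, fell from 211 ± 7.20 to 184 ± 6.65 CPM (log2 fold change -0.20, SE 0.043). Called genes had an adjusted p of at most 0.00382 in edgeR's test. SNAI1 was named after its value was seen. Its call was lost without control replicate 1 (0.52, edgeR adjusted p = 0.0534).

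Adherens junctions and desmosomes, set beside the tight junction, had 4 of 16 genes higher and 6 lower (median -0.10). The cadherins CDH1 and CDH2 fell from 23.2 ± 1.11 to 10.0 ± 1.03 CPM and from 356 ± 7.48 to 224 ± 4.26 CPM. DSP, the desmosomal plaque protein, rose from 620 ± 36.7 to 772 ± 28.8 CPM and NECTIN3 from 47.2 ± 2.28 to 65.4 ± 3.88 CPM (SD, n = 3 per group). Adjusted p of the called genes was at most 0.0468 in edgeR's test. No test compared this list with the tight junction lists.

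**Figure D4:**
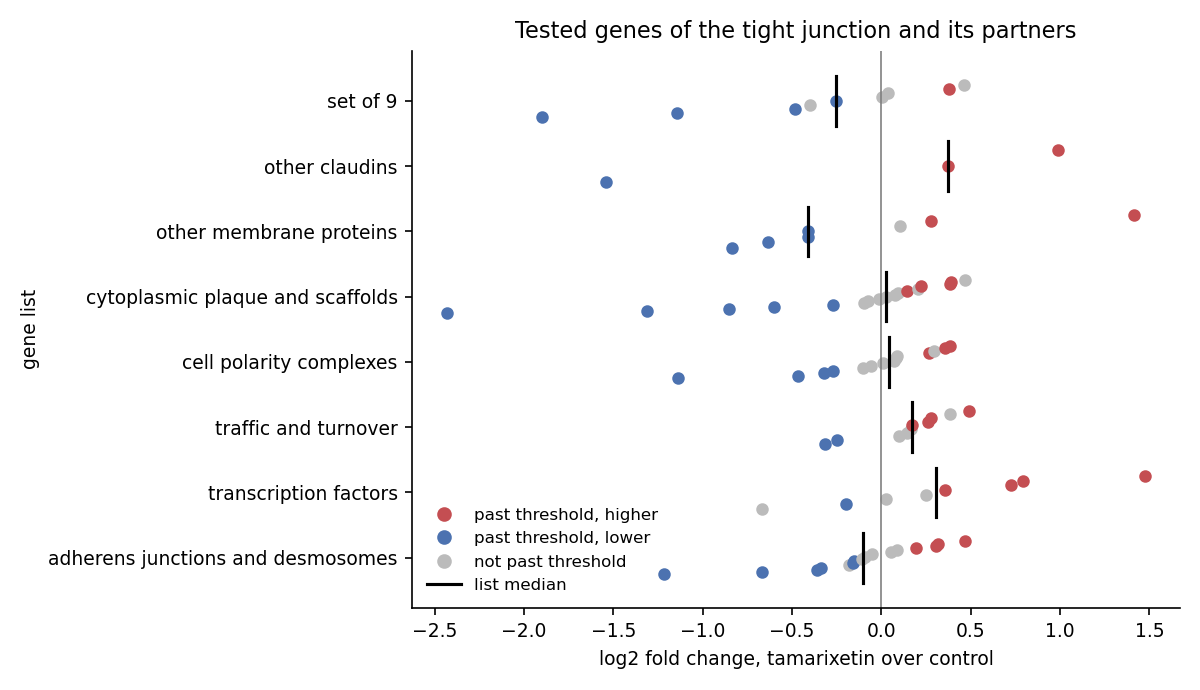
Log2 fold change of each tested gene by list, coloured by whether it is past the threshold and in which direction, with the list median as a black bar. Every list holds genes on both sides of 0, from TJP3 at -2.43 to KLF5 at 1.47.

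Over 8645 other genes averaging 10 CPM or more, those whose log2 CPM followed CLDN19 most closely over the 6 libraries were CLU (Pearson r = 0.9996), RBM10 (0.9990) and TUBBP5 (0.9985), with log2 fold changes of -0.90, -0.30 and -0.55. For CLDN12 they were PEDS1 (r = 0.9948), RNF149 (0.9884) and VCAN (0.9848), with 0.15, 0.050 and 0.33. The 6 libraries fall into 2 groups, so r over them mostly reflects the group difference and is given as a description.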

How the data were processed

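Reads were trimmed, aligned and counted by the authors with fastp 0.23.1, STAR 2.7.10b and featureCounts 2.0.6 on GRCh38, per the submitters' processing notes; libraries were QuantSeq 3′ forward, per the labels' protocols. Not given in the sources used here are the annotation release, the strand setting and whether molecular identifiers were counted. The authors deposited raw counts by gene symbol, 1 table for each of 3 control and 3 tamarixetin libraries. Within a group, pairs of libraries had a chi-square per gene of 2.35 to 3.52, so none was treated as a copy.

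After filterByExpr removed low counts and TMM factors scaled the libraries, the groups were compared with edgeR 4.0.16 (R 4.3.3) by its quasi-likelihood test, with Benjamini-Hochberg adjustment over 13198 genes and a threshold of 0.05. The test was checked on simulated data. The SE of a log2 fold change is its size over the root of F, and CPM uses TMM-adjusted library sizes. Likeness used log2 CPM with a prior count of 2. Gene positions and promoters are from RefSeq, GRCh38.p14.

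The members and lists were chosen with earlier results of these data known. Named were all members, TJP3 and of each list up to 4 called genes with the smallest p and the 2 most abundant in control, plus the 3 genes most like the member with the largest rise and the one with the largest fall among those of at least 10 CPM. A gene of the scaffold list is not reported here and is left out of the list counts.

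Alternatives were DESeq2 size factors or library size alone, other filters, DESeq2 1.42.0, limma-voom (3.58.1), a replicate block, single libraries left out, an adjusted p of 0.01 and a minimum fold of 1.2.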

Additional observations from a re-analysis of the deposited data

How the results depend on the processing

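When the test asked for a change above a minimum fold of 1.2, 2560 genes passed in place of 5771; of the set, 0 were higher and 2 lower (CLDN14 and CLDN19), and of the other junction lists 9 were higher and 9 lower. Leaving out each library in turn gave 5155 to 5367 genes, 0 to 1 members higher, 3 to 4 members lower, and 16 to 20 higher and 15 to 17 lower in the other lists. The remaining alternatives stayed within 1.5 times of these counts, and no member or named junction gene past the threshold changed sign under those that tested it. CLDN2, CLDN14 and OCLN were not tested with at least 5 CPM in 3 libraries, which left 6 members. With the replicate number as a block 5735 genes passed, with the same 1 higher and 4 lower in the set; same-numbered libraries did not deviate together (r of -0.0089, -0.041 and -0.020 over genes), so the numbers were not taken as pairs. Library size alone moved the median of all genes by 0.035. Low counts limit CLDN2, CLDN14 and OCLN, where 1 count is 0.0627 to 0.0833 CPM.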
